A study of Sus scrofa with 12 samples.

Results

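The anaphase-promoting complex or cyclosome (APC/C) is the ubiquitin ligase that drives cells out of metaphase, and the transcripts of its activators, inhibitors and subunits were followed through in vitro maturation of pig oocytes. The genes were taken by name from the deposited gene table: the activators CDC20 and FZR1, the inhibitors FBXO5 and FBXO43, and the subunits ANAPC1, ANAPC4, ANAPC5, CDC16, CDC23 and CDC27. Of these 10 genes, 9 had a row among the 28965 genes of the table, and all 9 passed the filter on low counts. FBXO43 was not analysed here. RNA came from pig (Sus scrofa) oocytes stripped of their cumulus cells and sampled after 0, 12, 28 or 44 h of maturation, as 3 libraries per time. Maturation took place in a chemically defined medium, as the series title has it, and the 0 h oocytes are the baseline. The labels name no strain, age or treatment beyond the hours of culture, and no number of oocytes or animals behind a library.

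The APC/C marks proteins for destruction by attaching ubiquitin to them. Its activator, CDC20 or FZR1, brings in the substrates, among them B-type cyclins and securin, and EMI proteins such as the product of FBXO5 block substrate binding and ubiquitin transfer. In mouse oocytes the complex with FZR1 helps to hold prophase arrest, the complex with CDC20 drives the end of the first meiotic division, and EMI2, the product of FBXO43, holds the egg at the second metaphase.

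Library totals ran from 21877235 to 26015373 gene counts, and 12977 genes were tested. Levels over time are given as CPM, that is, gene counts brought to the same library size, with mean ± SD and n = 3 libraries per time. A CPM value is a share of a library, and in such bulk RNA fewer cells holding a transcript and less RNA per cell cannot be told apart. Nothing in the labels says that the 3 libraries of a time stem from different animals or cultures, and each p-value therefore reflects the spread among libraries alone, which may be technical. All 13 oocyte markers with a row, of 15 on the list, were detected, and their summed level ranged over 12320 to 14730 CPM in 0 h libraries, 10940 to 12410 CPM in 12 h libraries, 9734 to 10140 CPM in 28 h libraries and 7760 to 7849 CPM in 44 h libraries. Of 24 cumulus and granulosa cell markers, 22 had a row and 20 were detected, while FSHR, the receptor for follicle-stimulating hormone, and LUM had 0 counts in all libraries. That list summed to between 309 and 327 CPM at 44 h, against between 326 and 382 CPM at 0 h, of which AMH gave 154 to 254 CPM, VCAN 69.4 to 96.4 CPM and GREM1 28.5 to 46.8 CPM over the 12 libraries. The part of these markers in the results was not tested. Blood cell markers summed to at most 1.46 CPM, with ALAS2 at 0.

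With all 12 libraries, no change of an APC/C gene of the set over maturation passed the test. CDC20, FZR1, FBXO5, ANAPC1 and CDC27 were abundant, with at least 98.1 CPM in every library and fitted folds at 44 h over 0 h between 0.941 and 1.05. ANAPC4, ANAPC5, CDC16 and CDC23 were scarce, with at most 10.9 CPM in any library and fitted folds at 44 h over 0 h between 0.712 for ANAPC4 and 1.10 for CDC16. In edgeR's quasi-likelihood fit, with p-values adjusted by Benjamini-Hochberg over all tested genes, 0 of the 9 genes passed the threshold of 0.05 in any comparison.

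**Figure D1:**
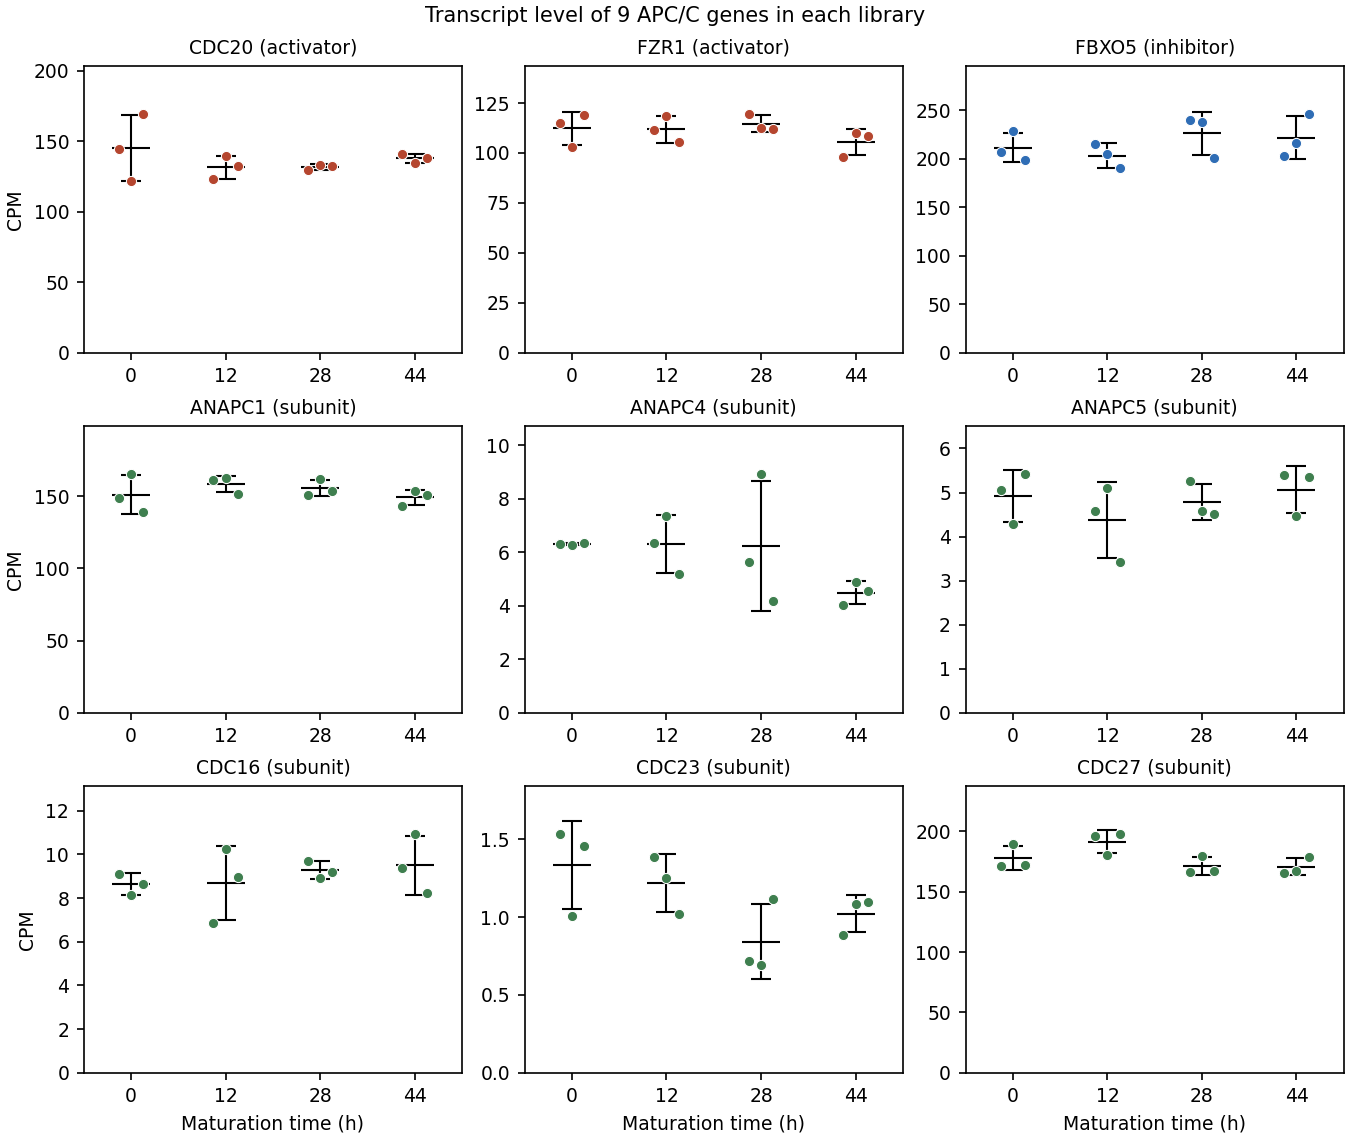
Transcript level in CPM (vertical axes, each from 0) against maturation time in hours for the 9 APC/C genes. Points are libraries, long bars the mean and short bars the SD (n = 3 per time). CDC20 spreads most at 0 h (122 to 169 CPM), ANAPC4 spreads most at 28 h (4.18 to 8.92 CPM) and lies at 4.04 to 4.88 CPM at 44 h.

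CDC20 encodes the activator that works from metaphase onward and that the spindle checkpoint holds back. The gene (ENSSSCG00000003949) lies on chromosome 6 of Sscrofa11.1, from 167886270 to 167890583 on the minus strand. Its libraries held 144, 122 and 169 CPM at 0 h, 123, 139 and 133 CPM at 12 h, 129, 133 and 132 CPM at 28 h, and 141, 135 and 138 CPM at 44 h. All 9 later libraries lay within the range of the 0 h libraries. Mean levels were 145 ± 23.7 CPM at 0 h, 131.5 ± 8.15 CPM at 12 h, 131.5 ± 1.90 CPM at 28 h and 138 ± 3.29 CPM at 44 h (SD, n = 3 each). The fitted fold at 44 h over 0 h was 0.9495, with a 95% interval of 0.840 to 1.07 (edgeR adjusted p = 0.620). The 3 libraries at 44 h all lay above the 3 at 28 h, by a fold of 1.05 with an interval of 0.926 to 1.19 (edgeR adjusted p = 0.809). Replicate 3 was the lowest 0 h library. Without it, CDC20 at 28 h was below 0 h with a log2 fold change of -0.26 and an edgeR adjusted p of 0.0451, and any change over the 4 times had an adjusted p of 0.0457. With all 12 libraries those adjusted p-values were 0.513 and 0.584 by edgeR. The 2 values without 0 h replicate 3 were the only 2 of 1124, over all genes of the set and all alternative settings run, that fell under 0.05. Without that library edgeR called 629 of 13221 tested genes at 28 h over 0 h, of which 471 were lower. With all 12 libraries it called 345 of 12977. The same 0 h library was the lowest of its time for 6 of the 9 genes and the highest for the other 3, which were FBXO5, ANAPC1 and CDC27.

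FZR1 encodes CDH1, the activator that takes over late in division and keeps the complex active while CDK1 is low. The gene (ENSSSCG00000013481) lies on chromosome 2, from 75118832 to 75146837 on the minus strand. It stood at 115, 102.8 and 119 CPM at 0 h, 111, 119 and 105.3 CPM at 12 h, 119.5, 112 and 112 CPM at 28 h, and 98.1, 110.2 and 108.5 CPM at 44 h. All 3 libraries at 44 h lay below the 3 at 28 h, and 44 h overlapped 0 h and 12 h. The mean level was 105.6 ± 6.54 CPM at 44 h, against 115 ± 4.24 CPM at 28 h, a fold of 0.921 with an interval of 0.828 to 1.03 (edgeR adjusted p = 0.508). Over 0 h, the fold of FZR1 at 44 h was 0.941, with an interval of 0.845 to 1.05 (edgeR adjusted p = 0.477). The span of FZR1, introns included, overlaps that of MFSD12 on the opposite strand by 1877 bases, at 20.4 to 31.1 CPM for MFSD12, and C19orf71 on the same strand, which had 0 to 7 counts per library. Whether counting used the strand, and how it treated shared bases, is not given in the sources used here, so reads in those stretches are uncertain.

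FBXO5 encodes EMI1, an inhibitor that occupies the substrate site of the complex and is itself removed through PLK1 and the SCF ligase with BTRC. The gene (ENSSSCG00000004077) lies on chromosome 1, from 13467501 to 13505936 on the plus strand. Its libraries held 207, 228 and 199 CPM at 0 h, 215, 205 and 190.0 CPM at 12 h, 240.2, 238 and 201 CPM at 28 h, and 202, 216 and 246 CPM at 44 h. The libraries of all 4 times overlapped, and FBXO5 had the highest mean CPM of the set. Its mean was 222 ± 22.4 CPM at 44 h, against 211 ± 15.2 CPM at 0 h, a fold of 1.05 with an interval of 0.932 to 1.18 (edgeR adjusted p = 0.639). At 28 h the mean was 226 ± 22.2 CPM, against 203 ± 12.5 CPM at 12 h, a fold of 1.11 with an interval of 0.989 to 1.25 (edgeR adjusted p = 0.842).

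Ratios within a library do not depend on how libraries are scaled. The ratio of CDC20 to FZR1, as log2 of counts, was 0.33, 0.25 and 0.51 at 0 h, 0.14, 0.23 and 0.33 at 12 h, 0.11, 0.24 and 0.24 at 28 h, and 0.52, 0.29 and 0.34 at 44 h. The 28 h libraries were low, below all those of 44 h and, by a narrow margin, of 0 h. The mean log2 ratio was 0.38 ± 0.12 at 44 h and 0.36 ± 0.13 at 0 h, a difference of 0.02 (exact two-sided permutation test, p = 0.7, n = 3 each, where 0.1 is the smallest p this design allows). Leaving out 1 library moved that difference between -0.05 and 0.10. On the deposited RPKM scale, which divides by gene length, CDC20 was 4.92 to 6.53 times FZR1 and 2.09 to 3.33 times FBXO5 in the 12 libraries. The ratio to FZR1 averaged 5.95 ± 0.518 at 44 h and 5.85 ± 0.553 at 0 h, and the ratio to FBXO5 averaged 2.45 ± 0.270 at 44 h and 2.72 ± 0.618 at 0 h (SD, n = 3 each). The size of these RPKM ratios rests largely on the gene lengths used, which the sources used here do not give. Lengths worked back from counts, RPKM and summed gene counts were 2287 bases for CDC20, 10392 for FZR1 and 8956 for FBXO5. They serve as relative values only. The same step gave MOS 2092 bases, more than its whole span from 75739402 to 75741076. In CPM the order of CDC20 and FBXO5 was reversed, with means over the 12 libraries of 136.5 and 215.7 CPM.

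**Figure D2:**
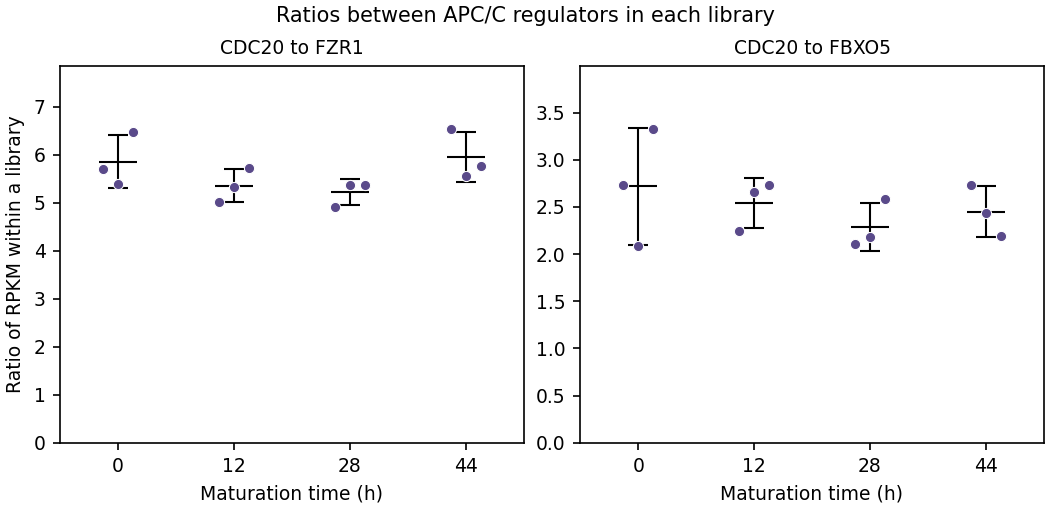
Ratio of RPKM within each library (vertical axes, from 0) against maturation time in hours, for CDC20 to FZR1 on the left and CDC20 to FBXO5 on the right. Points are libraries, long bars the mean and short bars the SD (n = 3 per time). On this scale, which depends on the gene lengths used, CDC20 exceeds FZR1 at least 4.92 times and FBXO5 at least 2.09 times in every library. The ratio to FZR1 at 28 h (4.92 to 5.37) lies below those at 44 h (5.55 to 6.53) and at 0 h (5.39 to 6.46), and the ratios to FBXO5 overlap between all times.

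The subunits fell into an abundant and a scarce group. ANAPC1, the large scaffold of the platform (ENSSSCG00000008105; chromosome 3, 44509692 to 44605014, plus strand), had 149, 165 and 139 CPM at 0 h, 161, 162 and 152 CPM at 12 h, 151, 162 and 154 CPM at 28 h, and 143, 153 and 151 CPM at 44 h. All times overlapped. Its fold at 44 h over 0 h was 0.987 with an interval of 0.893 to 1.09 (edgeR adjusted p = 0.899). The 2 genes that overlap it on the opposite strand had 0 to 14 counts in any library.

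CDC27 encodes the arm subunit that binds the C-terminal tail of both activators (ENSSSCG00000017308; chromosome 12, 16810910 to 16882269, plus strand). It stood at 171, 189.6 and 172 CPM at 0 h, 196, 180.4 and 198 CPM at 12 h, 166, 179.6 and 167 CPM at 28 h, and 165.5, 167 and 179 CPM at 44 h. The mean was highest at 12 h, where the libraries overlapped those of 0 h, and all 3 at 28 h lay below all 3 at 12 h by a narrow margin. The mean was 171 ± 7.35 CPM at 28 h, against 191 ± 9.60 CPM at 12 h, a log2 fold change of -0.16 with an interval of -0.30 to -0.02 (unadjusted p = 0.0237 and edgeR adjusted p = 0.666). Its fold at 44 h over 0 h was 0.959 with an interval of 0.872 to 1.06 (edgeR adjusted p = 0.608). CDC27 had the smallest unadjusted p of the set for any change over the 4 times, 0.0678 (edgeR adjusted p = 0.240). Among 7399 genes with a symbol and a mean of at least 10 CPM, the log2 CPM of MNS1 and CENPE followed that of CDC27 most closely over the 12 libraries, with Pearson's r of 0.952 and 0.944. These genes share the libraries and their depth, and the 2 correlations are given as a description.

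ANAPC4, a platform subunit (ENSSSCG00000025902; chromosome 8, 19301248 to 19341478, plus strand), had its lowest mean CPM at 44 h. Its libraries held 6.30, 6.26 and 6.35 CPM at 0 h, 6.36, 7.35 and 5.17 CPM at 12 h, 5.63, 8.92 and 4.18 CPM at 28 h, and 4.04, 4.88 and 4.54 CPM at 44 h. All 3 libraries at 44 h lay below all those of 0 h and 12 h, but the lowest 28 h library was among them. Means were 4.49 ± 0.423 CPM at 44 h and 6.30 ± 0.0463 CPM at 0 h, a log2 fold change of -0.49 with an interval of -0.95 to -0.03 (unadjusted p = 0.0387 and edgeR adjusted p = 0.135). Over the alternatives that adjusted p ran from 0.0720 to 0.317, so the difference did not pass in any of them. Counts for ANAPC4 averaged 142 per library. Its span, introns included, overlaps that of ZCCHC4 on the same strand along 38865 bases; the exonic bases they share were not measured, and reads that fall in both cannot be assigned with certainty. ZCCHC4 had 35.2 to 45.0 CPM, with a log2 fold change of -0.03 at 44 h over 0 h (edgeR adjusted p = 0.876).

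ANAPC5, another platform subunit (ENSSSCG00000009814; chromosome 14, 31259727 to 31306442, plus strand), had between 3.42 and 5.42 CPM in the 12 libraries, with 4.92 ± 0.585 CPM at 0 h, 4.37 ± 0.859 CPM at 12 h, 4.79 ± 0.416 CPM at 28 h and 5.07 ± 0.527 CPM at 44 h. Its fold at 44 h over 0 h was 1.03 with an interval of 0.776 to 1.37 (edgeR adjusted p = 0.917). CDC16, an arm subunit (ENSSSCG00000020899; chromosome 11, 79084176 to 79115331, plus strand), had between 6.86 and 10.9 CPM, with 8.63 ± 0.497 CPM at 0 h, 8.69 ± 1.71 CPM at 12 h, 9.28 ± 0.407 CPM at 28 h and 9.50 ± 1.36 CPM at 44 h. The times of both genes overlapped. The fold of CDC16 at 44 h over 0 h was 1.10 with an interval of 0.875 to 1.39 (edgeR adjusted p = 0.622).

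CDC23, an arm subunit next to the platform (ENSSSCG00000014325; chromosome 2, 140211336 to 140230793, minus strand), was the scarcest gene of the set, with 16 to 37 counts per library. Its libraries held 1.53, 1.01 and 1.46 CPM at 0 h, 1.39, 1.25 and 1.02 CPM at 12 h, 0.720, 0.689 and 1.12 CPM at 28 h, and 0.886, 1.09 and 1.09 CPM at 44 h. At such counts, counting error alone gives a coefficient of variation of 19.3%. The fold at 44 h over 0 h was 0.768 with an interval of 0.445 to 1.32 (edgeR adjusted p = 0.557), an interval wider than that of any other gene of the set.

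The comparisons were read against the share of all tested genes that passed. At 12 h over 0 h, 0 of 9 genes passed in edgeR, where 0.208% of all genes passed, and 0 of 9 had an unadjusted p under 0.05, against 11.3% of all genes. At 28 h over 12 h, 0 of 9 passed in edgeR against 0.262% of all genes, and CDC27 alone had an unadjusted p under 0.05, as had 6.25% of all genes. At 44 h over 28 h, 0 of 9 passed in edgeR against 4.69% of all genes (0.393% higher and 4.3% lower), and ANAPC4 alone had an unadjusted p under 0.05, as had 15.4% of all genes. At 28 h over 0 h, 0 of 9 passed in edgeR against 2.66% of all genes, and 0 of 9 had an unadjusted p under 0.05, against 13.6%. At 44 h over 0 h, the comparison with the most calls, 0 of 9 passed in edgeR against 19.9% of all genes, and ANAPC4 alone had an unadjusted p under 0.05, as had 31.1% of all genes. For any change over the 4 times, 0 of 9 passed in edgeR against 13.1% of all genes, and 0 of 9 had an unadjusted p under 0.05, against 25.3%. DESeq2 and limma-voom also called 0 of the 9 genes in each of these 6 tests. In the authors' deposited table, 0 of 54 FDR p-values for these genes over 6 pairwise comparisons were under 0.05, and the smallest was 0.0856, for ANAPC4 at 44 h over 0 h.

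Libraries of a pair of times did not overlap for CDC27 at 28 h over 12 h, where 11.5% of all tested genes did not overlap, for CDC20 and FZR1 at 44 h over 28 h, where 23.1% did not, and for ANAPC4 at 44 h over 0 h, where 33.5% did not. At 12 h over 0 h and at 28 h over 0 h, 0 of the 9 genes were free of overlap, against 13.4% and 18.7% of all genes. The median log2 fold change of the 9 genes at 44 h over 0 h was -0.06, against -0.01 for all tested genes, with 3 of the 9 higher and 6 lower in the fit. A p that misses the threshold does not show that levels were equal, and the intervals set what each gene allows. For CDC20, FZR1, FBXO5, ANAPC1 and CDC27, the 95% intervals at 44 h over 0 h lay between 0.840-fold and 1.18-fold. Those of the 4 scarce subunits reached from 0.445-fold to 1.39-fold. These intervals are unadjusted, 1 per gene, and come from the fit of all 12 libraries. Over the alternatives, the adjusted p of CDC20 at 44 h over 0 h ran from 0.0711 to 0.769.

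**Figure D3:**
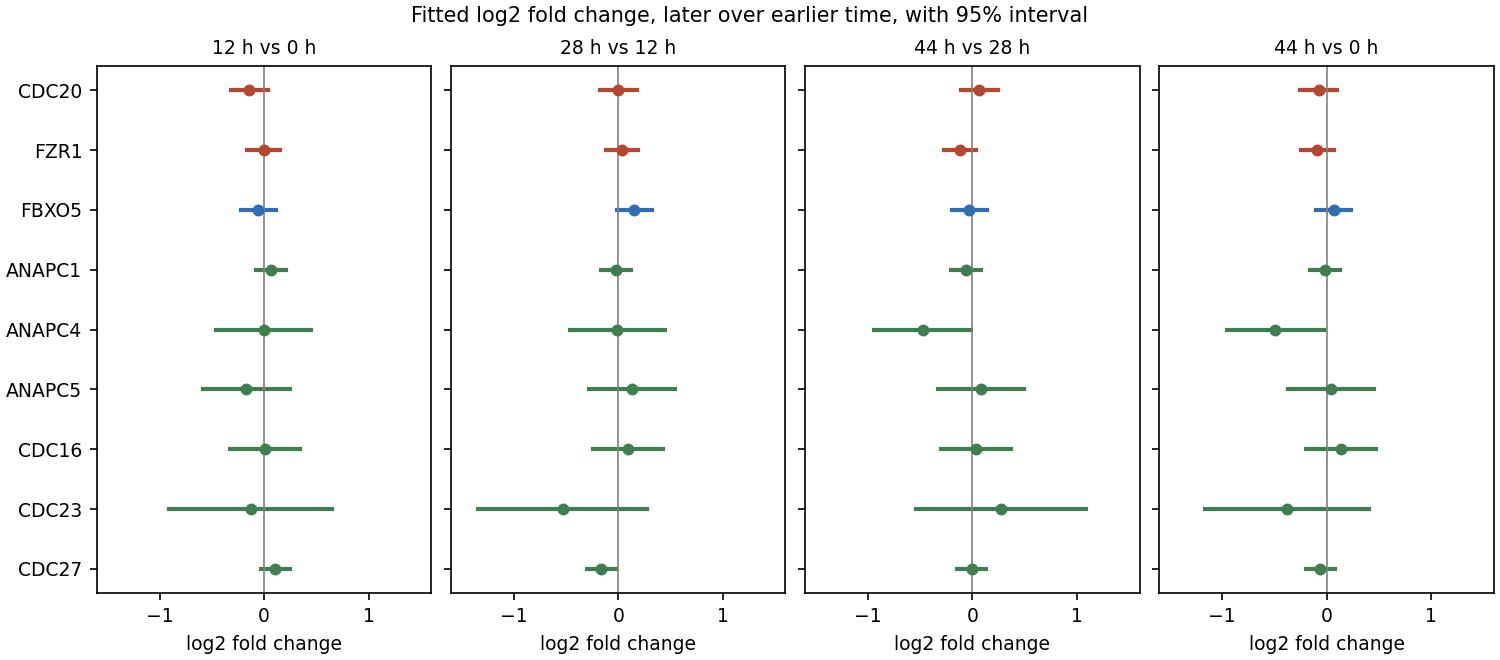
Fitted log2 fold change (horizontal axes), later over earlier time, for the 9 APC/C genes in 4 comparisons. Points are edgeR estimates and lines their 95% intervals, not adjusted for the number of genes; the vertical line marks no difference. The abundant genes have short intervals around 0, CDC23 has the longest, and the intervals that stay clear of 0 are those of CDC27 at 28 h over 12 h and of ANAPC4 at 44 h over 28 h and over 0 h.

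Levels of different genes were compared on the deposited RPKM scale, as means over the 12 libraries. The order and the folds on this scale depend on the gene lengths used, and in CPM FBXO5 stood above CDC20. CDC20 was highest with 59.6 ± 5.68 RPKM, above 95.4% of tested genes. CDC27 followed among the set with 25.4 ± 1.46 RPKM and FBXO5 with 24.1 ± 2.08 RPKM, and these overlapped, with CDC27 higher in 8 of 12 libraries. ANAPC1 had 13.1 ± 0.650 RPKM and FZR1 10.7 ± 0.702 RPKM, with ANAPC1 above FZR1 in all 12 libraries. ANAPC5 with 1.17 ± 0.149 RPKM, CDC16 with 1.16 ± 0.143 RPKM and ANAPC4 with 1.14 ± 0.275 RPKM overlapped and could not be ordered. CDC23 was last with 0.304 ± 0.0737 RPKM, and only 14.4% of tested genes lay below it. The median of all tested genes was 3.90 RPKM, so 5 of the set lay above it and 4 below. Between the highest and lowest of the 6 subunits, CDC27 and CDC23, mean RPKM differed 83.6-fold. The 6 subunits summed to 42.2 ± 1.95 RPKM at 0 h, 44.3 ± 0.232 RPKM at 12 h, 41.7 ± 1.72 RPKM at 28 h and 40.8 ± 1.33 RPKM at 44 h (SD, n = 3 each), and CDC27 and ANAPC1 made up most of it.

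**Figure D4:**
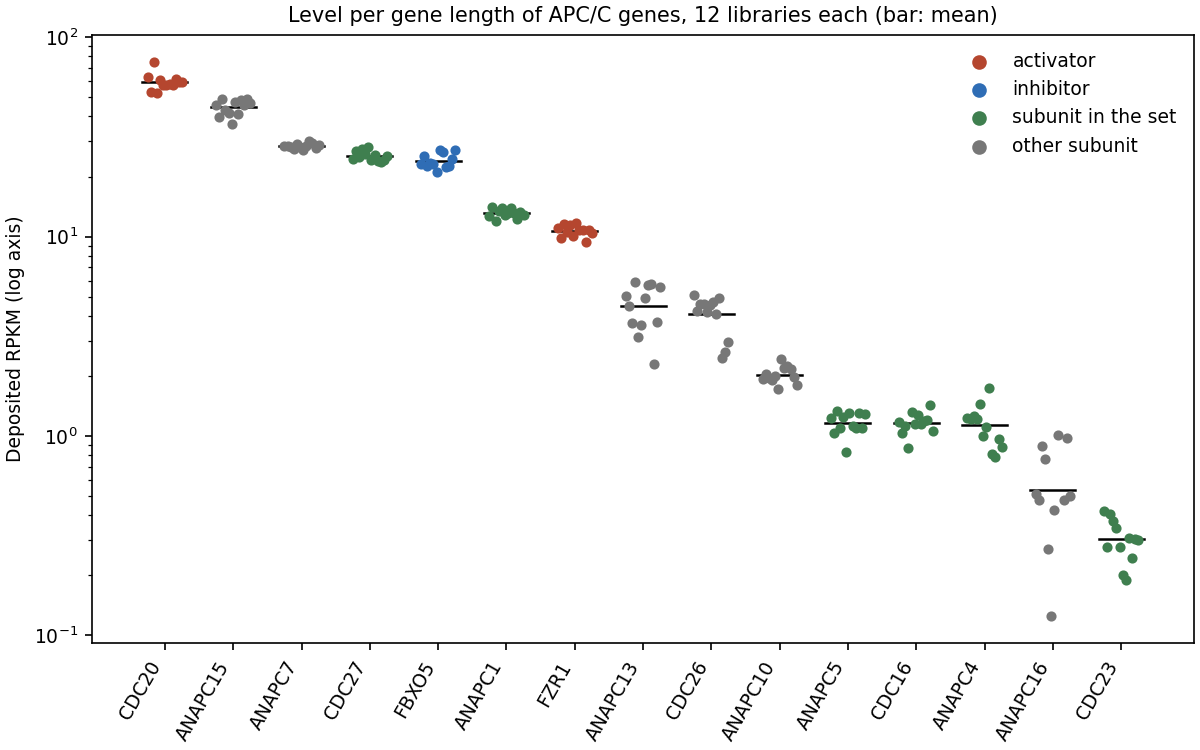
Deposited RPKM (vertical log axis) of the 9 APC/C genes of the set and of 6 other subunits, ordered by mean. Points are the 12 libraries and bars the mean; 1 library of ANAPC16 at 0 RPKM is not drawn. CDC20 lies at 52.6 to 74.7 RPKM and CDC23 at 0.190 to 0.421 RPKM.

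The other subunits of the complex were read beside the set. Of 8, ANAPC7, ANAPC10, ANAPC13, ANAPC15 and CDC26 were tested, ANAPC16 had too few counts to be tested, and ANAPC2 and ANAPC11 were not analysed here. CDC26, a small subunit that steadies CDC16, fell at 44 h. Its libraries held 5.28, 5.54 and 6.36 CPM at 44 h, against 9.90, 8.72 and 10.5 CPM at 28 h and 10.9, 9.13 and 9.71 CPM at 0 h. All 3 libraries at 44 h lay below every earlier library. The log2 fold change was -0.79 ± 0.15 (SE) at 44 h over 0 h (edgeR adjusted p = 0.000563) and -0.76 ± 0.15 at 44 h over 28 h (edgeR adjusted p = 0.00227). CDC26 passed in those 2 comparisons and for any change (edgeR adjusted p = 0.00159) under every alternative run. CDC16, the partner of CDC26 in the complex, had 9.50 ± 1.36 CPM at 44 h and 9.28 ± 0.407 CPM at 28 h. Of the 5 tested subunits, 1 was called lower at 44 h over 0 h, where 11.6% of all genes were, and 1 at 44 h over 28 h, where 4.3% were. At 12 h over 0 h, 28 h over 12 h and 28 h over 0 h, edgeR, DESeq2 and limma-voom called 0 of 5, with 1 unadjusted p under 0.05, that of ANAPC10 at 28 h over 12 h. ANAPC7, another arm subunit, had 294 ± 11.9 CPM at 44 h and 292 ± 5.05 CPM at 0 h. ANAPC15, which helps to turn over checkpoint complexes bound to the APC/C, had 52.1 ± 1.46 CPM at 44 h and 49.5 ± 4.73 CPM at 0 h.

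**Figure D5:**
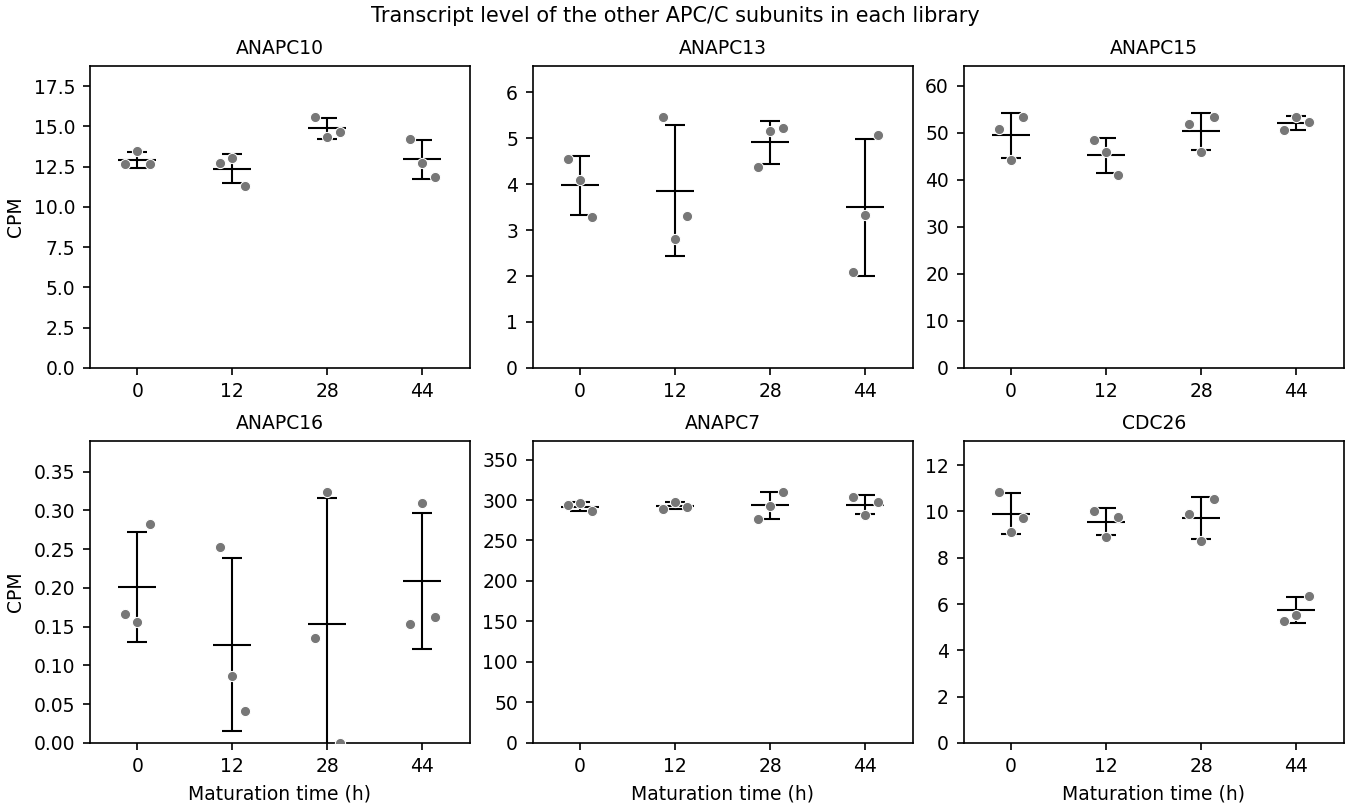
Transcript level in CPM (vertical axes, each from 0) against maturation time in hours for 6 other APC/C subunits. Points are libraries, long bars the mean and short bars the SD (n = 3 per time). CDC26 lies at 5.28 to 6.36 CPM at 44 h and at 8.72 to 10.9 CPM at the 3 earlier times; ANAPC16 lies at 0 to 0.324 CPM and was not tested.

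Among 9 genes listed as E2 enzymes, deubiquitinases or other partners of the APC/C, 1 was called at 44 h over 0 h. It was USP44, a deubiquitinase that counters CDC20 ubiquitination. It had 398 ± 25.4 CPM at 44 h and 341 ± 18.7 CPM at 0 h, a log2 fold change of 0.22 (edgeR adjusted p = 0.0247), where 8.3% of all genes were called higher. The call was lost when replicate 2 or 4 of 0 h, or replicate 2 or 4 of 44 h, was left out, with edgeR adjusted p of 0.0629 to 0.136. The span of USP44 overlaps that of METAP2 on the opposite strand by 1011 bases, and METAP2 had a log2 fold change of 0.21 (edgeR adjusted p = 0.0427). In the other 4 pairwise comparisons edgeR, DESeq2 and limma-voom called 0 of 9, with 0 to 3 of 9 at an unadjusted p under 0.05. For any change over the 4 times edgeR called 0 of 9, where 13.1% of all genes passed. There DESeq2 called USP44 (DESeq2 adjusted p = 0.0472), among 2299 of 12977 genes.

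Of 9 genes listed with the mitotic checkpoint complex and its disassembly, CDC20B among them, 1 was called at 44 h over 0 h. BUB1, a checkpoint kinase, fell to 94.1 ± 6.66 CPM at 44 h, against 128.5 ± 4.90 CPM at 0 h, a log2 fold change of -0.45 (edgeR adjusted p = 0.000132), where 11.6% of all genes were called lower. MAD2L1, the checkpoint protein that binds CDC20, was called beside BUB1 for any change over the 4 times (edgeR adjusted p = 0.0309), a test that 13.1% of all genes passed, with 97.5 ± 12.3 CPM at 0 h, 75.3 ± 3.23 CPM at 12 h, 90.7 ± 8.20 CPM at 28 h and 89.1 ± 6.11 CPM at 44 h. The MAD2L1 call was lost when replicate 2 of 0 h, or replicate 1 or 5 of 12 h, was left out (edgeR adjusted p of 0.0871 to 0.112) and with the replicate block (0.400). In the other 4 pairwise comparisons edgeR called 0 of 9, with 1 of 9 at an unadjusted p under 0.05 in each. DESeq2 called MAD2L1 at 12 h over 0 h and BUB1 at 44 h over 28 h, and limma-voom called 0 in those 4. Of all 12977 tested genes, DESeq2 called 72 at 12 h over 0 h, against 27 by edgeR. At 44 h over 28 h it called 838, against 609 by edgeR.

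Of 35 genes listed as APC/C substrates or their partners, 30 were tested, and 7 were called at 44 h over 0 h, where 19.9% of all genes were. The 3 higher genes were UHRF1, AURKB and CENPF, and the 4 lower ones KIF22, ESPL1, BUB1 and DLGAP5, the last named after its values were seen. BUB1 also stands in the checkpoint list, so its call is counted in both lists. The DLGAP5 call (log2 fold change of -0.24, edgeR adjusted p = 0.0241) was lost when replicate 2 or 3 of 0 h, or replicate 1 or 2 of 44 h, was left out (edgeR adjusted p of 0.0510 to 0.106). KIF22, a chromokinesin, fell to 113 ± 12.04 CPM at 44 h, against 193 ± 33.2 CPM at 0 h, a log2 fold change of -0.77 (edgeR adjusted p = 1.88e-05). ESPL1 encodes separase, which is held by the substrate securin and is not itself a classical substrate. It fell to 380 ± 23.6 CPM at 44 h, against 498 ± 2.55 CPM at 0 h, a log2 fold change of -0.39 (edgeR adjusted p = 0.000129). UHRF1, a ubiquitin ligase of DNA methylation maintenance, rose to 659 ± 21.2 CPM at 44 h, against 494 ± 21.0 CPM at 0 h, a log2 fold change of 0.42 (edgeR adjusted p = 0.000120). AURKB, the kinase of the chromosomal passenger complex, had 49.5 ± 5.64 CPM at 44 h and 39.8 ± 1.74 CPM at 0 h, a log2 fold change of 0.32 (edgeR adjusted p = 0.0219). Its call was lost with the replicate block, and when replicate 2 or 3 of 0 h, or replicate 1 or 2 of 44 h, was left out (edgeR adjusted p of 0.0561 to 0.151). Of the 30, 3 were called at 44 h over 28 h, where 4.69% of all genes were. CENPF, a kinetochore protein, was higher with 194 ± 13.5 CPM at 44 h and 146 ± 11.6 CPM at 28 h, a log2 fold change of 0.41 (edgeR adjusted p = 0.0148), and KIF22 and ESPL1 were lower. That CENPF call was lost when replicate 2 or 3 of 28 h, or replicate 1 or 4 of 44 h, was left out (edgeR adjusted p of 0.0516 to 0.0933). Its call at 44 h over 0 h, with a log2 fold change of 0.30 (edgeR adjusted p = 0.0359), was lost with the replicate block, and when any 0 h library, or replicate 1 or 4 of 44 h, was left out (edgeR adjusted p of 0.0522 to 0.153). At 12 h over 0 h, 28 h over 12 h and 28 h over 0 h, edgeR, DESeq2 and limma-voom called 0 of 30, with 2, 2 and 4 at an unadjusted p under 0.05 in edgeR. For any change over the 4 times edgeR called 6 of the 30 (UHRF1, AURKB, CENPF, KIF22, ESPL1 and BUB1), where 13.1% of all genes passed. The AURKB and CENPF calls there were lost with the replicate block (edgeR adjusted p of 0.1415 and 0.0874) and in other alternatives. DESeq2 called 9 of 30 at 44 h over 0 h, with KIF11 and TOP2A, and 4 at 44 h over 28 h, with BUB1. Of all 12977 genes it called 2929 and 838.

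Of 30 genes that regulate EMI proteins, 27 were tested, and 4 were called at 44 h over 0 h, all lower, where 11.6% of all genes were. MOS, the kinase that starts the MAP kinase cascade of oocytes and is also 1 of the oocyte markers, fell to 687 ± 25.5 CPM at 44 h, against 841 ± 14.0 CPM at 0 h, a log2 fold change of -0.29 (edgeR adjusted p = 0.00405). SKP1, the adaptor of the SCF ligase that removes EMI proteins, fell to 151 ± 6.26 CPM at 44 h, against 186 ± 9.50 CPM at 0 h, a log2 fold change of -0.31 (edgeR adjusted p = 0.00473). SKP1 was also the 1 gene of 27 called at 28 h over 0 h (edgeR adjusted p = 0.0316), where 2.05% of all genes were called lower. That call was lost in a fit of those 2 times alone, and when replicate 2 or 4 of 0 h, or replicate 3 or 4 of 28 h, was left out (edgeR adjusted p of 0.0529 to 0.261). CAMK2D, a kinase that marks EMI2 for removal at fertilisation in frog eggs, and CUL1, the SCF scaffold, were the other 2 called lower at 44 h, and are named after their values were seen. CAMK2D had a log2 fold change of -0.31 (edgeR adjusted p = 0.0107), a call lost when replicate 4 of 44 h was left out (edgeR adjusted p = 0.0534). CUL1 passed narrowly, with a log2 fold change of -0.18 (edgeR adjusted p = 0.0460). The CUL1 call was lost with RLE or upper quartile scaling, with no filter, with the replicate block, and when any 0 h library, replicate 1 or 2 of 44 h, or replicate 3 of 28 h was left out (edgeR adjusted p of 0.0519 to 0.216). MOS alone was called at 44 h over 28 h, with a log2 fold change of -0.28 (edgeR adjusted p = 0.0189), where 4.3% of all genes were called lower. That call was lost with the replicate block, and when replicate 2 or 3 of 28 h, or replicate 2 or 4 of 44 h, was left out (edgeR adjusted p of 0.0695 to 0.119). At 12 h over 0 h and 28 h over 12 h, edgeR, DESeq2 and limma-voom called 0 of 27, with 2 and 0 at an unadjusted p under 0.05. For any change over the 4 times edgeR called 2 of the 27, MOS and SKP1, where 13.1% of all genes passed. The MOS call there was lost without replicate 2 or 4 of 44 h (edgeR adjusted p of 0.0977 and 0.0780). The SKP1 call was lost without replicate 2 or 4 of 0 h (edgeR adjusted p of 0.120 and 0.0502). DESeq2 called CAMK2D as well, among 2299 of 12977 genes.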

How the data were processed

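Per the labels' protocols, total RNA of denuded oocytes was made into stranded libraries with a low-input SMARTer kit and sequenced in pairs on a NovaSeq. The submitters' processing notes name the Sscrofa11.1 genome and DESeq2. The aligner, the counter, the use of strand and the treatment of reads with several matches are not given in the sources used here. The deposited table gives total counts per gene and library, per the file headers, and these whole numbers were tested. The deposited RPKM values, per the file headers counts scaled by library and gene length, were used to compare levels between genes. The log2 fold changes and FDR-adjusted p-values of the authors were used as deposited, for the set's genes only, and 24 per-sample columns (TPM and CPM) were not used.

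Libraries were matched to samples by the time and number in their titles, and 0 of 66 pairs had identical counts. Genes passing filterByExpr (minimum count 10) entered edgeR 4.0.16 (R 4.3.3) with TMM factors of 0.979 to 1.02. The robust fit had a mean for each time over all 12 libraries, 8 residual degrees of freedom and a biological coefficient of variation of 10.6%. Quasi-likelihood F tests gave 5 pairwise comparisons and 1 test of any change, with Benjamini-Hochberg adjustment over all 12977 tested genes at 0.05. Intervals are 95% and unadjusted. With at least 21877235 counts per library, counting error is small for the abundant genes and large for CDC23. The ratio test added 0.5 to each count. The pipeline was tested on simulated data.

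The set and the 5 other lists were chosen with earlier results of these data known. BUB1, PLK1 and USP37 each stand in 2 of the other lists. Named genes were all of the set, and up to 2 higher and 2 lower called genes per list and comparison by smallest adjusted p. For the gene of the set with the smallest p for any change, the 2 best correlated genes were named. Symbols came from the table, with 785 more from a table of gene names. Alternatives were limma-voom (limma 3.58.1), DESeq2 1.42.0, RLE or upper quartile scaling, scaling by library totals alone, dropping the filter or asking for 1 CPM in at least 3 libraries, a fit restricted to both times of a comparison, the replicate number as a block, and leaving out each library.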

Additional observations from a re-analysis of the deposited data

How the results depend on the processing

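Of 125 alternative counts of called APC/C genes, 123 were 0 of 9, and 2 were 1 (CDC20 without 0 h replicate 3). Leaving out 1 library gave 0 to 1 called genes at 28 h over 0 h and for any change. Counts over all genes moved more. At 12 h over 0 h edgeR called 27 genes (23 higher and 4 lower), DESeq2 72 (45 and 27), a fit with no filter 64 (36 and 28), and fits without 1 library 20 to 261. Of the 261, without 0 h replicate 3, 39.1% were higher and 159 genes were lower, so that lower calls then outnumbered higher ones. At 28 h over 12 h the counts were 34 (14 higher and 20 lower), 69 with DESeq2 (19 and 50), 64 with no filter (20 and 44), 8 with the replicate block (6 and 2) and 8 to 52 without 1 library (52 without 0 h replicate 3, and at most 20 without 1 of the 28 h libraries or without 12 h replicate 3 or 5). At 44 h over 28 h they were 609 (51 higher and 558 lower), 981 with only those 2 times (253 and 728), 838 with DESeq2 (168 and 670), and 394 (without 44 h replicate 2) to 723. At 28 h over 0 h they were 345, 563 with DESeq2, and 127 to 629 (629 without 0 h replicate 3, and at most 202 on leaving out replicate 2 or 4 of 0 h, or replicate 3 or 4 of 28 h). At 44 h over 0 h the range without 1 library was 1706 (without 0 h replicate 2) to 2868 around 2581, and for any change 1089 (without 44 h replicate 1) to 2168 around 1705. The causes were not tested. With library totals alone the split was 23 higher and 10 lower at 12 h over 0 h, and 12 higher and 11 lower at 28 h over 12 h. The 10 pairs of same-numbered libraries had correlated deviations of -0.01 to 0.13 (median 0.05), with 2 over 0.1, and the 44 pairs of different numbers -0.11 to 0.07 (median -0.02), with 0 over 0.1. The same-numbered pairs had the higher median, so the numbers may partly pair the libraries. The labels state no pairing, and the main fit left the numbers out, with the replicate block as an alternative. The replicate block called 0 of the 9 genes in all 6 tests. The ratio of CDC20 to FZR1 differed by -0.05 to 0.10 without 1 library. The planned ratio of FBXO5 to FBXO43 was not run, since FBXO43 was not analysed here. Of 1375 values over the alternatives, for the genes of the other lists named by smallest adjusted p, 56 lost a call, 15 gained one and 0 reversed. Many of these values belong to comparisons with no call in the main fit to lose. DLGAP5, CAMK2D and CUL1, named after their values were seen, are not among them, and their lost calls are given above. Depth limits CDC23 most (16 to 37 counts), then ANAPC5, ANAPC4 and CDC16.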
